A study of Mus musculus with 12 samples.

Results

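The growth hormone and insulin-like growth factor (IGF) axis of the liver was followed through 10 genes, chosen by symbol from the 47069 genes of the deposited table: Igf1, Ghr, Igfals, Igfbp1, Igfbp2, Igfbp3, Igfbp4, Socs2, Stat5b and Insr. All 10 were found and all 10 had a mean of at least 0.1 FPKM (read fragments scaled by transcript length and by sequencing depth), as did 17386 genes in all, which are the genes tested. Isolated hepatocytes or whole liver of mice at postnatal day 14 gave the polyadenylated RNA that was sequenced. There were 4 groups of 3 libraries each, hepatocytes of either genotype and whole liver of either genotype, the genotypes being WT and Cdk1 Liv-/-. Cdk1 Liv-/- mice carry Cdk1 flox/flox and Albumin-Cre, a recombinase under the promoter of a gene that hepatocytes express. The labels call the controls wild type and name no allele for them. The labels do not state that the libraries come from separate animals, so the p-values measure the spread between libraries.

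An FPKM of 1 on 1 kb of transcript stood for 34.7 to 49.9 reads, as estimated from the steps of weakly expressed genes. Between 19982 and 22243 genes were above 0 in a library. Cdk1, the deleted gene, was 25.5 ± 4.41 FPKM (SD, n = 3) in WT hepatocytes and 9.45 ± 2.47 in Cdk1 Liv-/- hepatocytes. In the corresponding whole livers it was 23.2 ± 1.95 and 12.6 ± 1.35, so reads assigned to the gene remained in both compartments. These FPKM are per gene and do not separate exon 3, the part that Cre removes. By quantitative PCR the study hardly detected Cdk1 mRNA in Cdk1 Liv-/- hepatocytes of the same age, and it detected no CDK1 protein there. The source of the remaining reads was not tested. Albumin (Alb), the most abundant of 8 hepatocyte markers, was high in all 12 libraries, with group means between 42219 and 62176 FPKM. In 1 library, Cdk1 Liv-/- whole liver replicate 3, Xist stood at 158 FPKM and 4 genes of the Y chromosome (Kdm5d, Uty, Ddx3y and Eif2s3y) summed to 0, although the methods of the study name male mice. The other 11 libraries had an Xist level of no more than 0.14 FPKM and a sum of Y-linked FPKM between 48.4 and 62.1. The count of the 10 genes that fell in whole liver is also given without that library.

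Growth hormone from the pituitary binds its receptor on hepatocytes, which activates the kinase JAK2 and the transcription factor STAT5B. STAT5B in turn drives transcription of Igf1, of Igfals and of Socs2, whose product dampens the signal. IGF1 leaves the liver bound to carrier proteins of the IGFBP family, and with IGFBP3 and the acid labile subunit encoded by Igfals it forms the long-lived complex of plasma. Insulin acts on the same cells through its own receptor and holds down Igfbp1 through FOXO1. In rodents the hepatic response to growth hormone matures during the weeks after birth.

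In whole liver 7 of the 10 genes fell with an adjusted p of 0.1 or less, the threshold used throughout: Ghr, Stat5b, Igf1, Igfals, Igfbp3, Igfbp4 and Insr. No gene of the 10 rose, with limma or under any alternative, and none had a higher value with an unadjusted p under 0.05. Over all genes tested, 7.53% fell and 38.0% rose in that comparison. In isolated hepatocytes 3 of the 10 fell, Ghr, Igfals and Igfbp3, beside 6.61% of all genes that fell and 12.1% that rose. Again none of the 10 rose with limma, and 6 had an unadjusted p under 0.05, all in the lower direction, as did 4939 of all genes in either direction. The median log2 fold change of the 10 genes was -0.45 in hepatocytes and -0.38 in whole liver, beside 0.049 and 0.18 over all genes tested.

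The order of the libraries was counted as well. Every Cdk1 Liv-/- library was below every WT library for 4 of the 10 genes in hepatocytes, beside 13.4% of all genes, and for 7 of the 10 in whole liver, beside 8.94% of all genes. The log2 fold change was below 0 for 10 of 10 genes in hepatocytes, where only Igfbp1 turned positive in an alternative, without Cdk1 Liv-/- replicate 2 (0.36). It was below 0 for 8 of 10 in whole liver, the others being Igfbp1 and Igfbp2. Igfbp2 turned negative under median-ratio scaling (-0.14) and without Cdk1 Liv-/- replicate 2 (-0.11). Socs2, among the 8, turned positive without WT replicate 3 or without Cdk1 Liv-/- replicate 2 (up to 0.24).

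The counts depended on single libraries. In hepatocytes 1 of the 10 genes fell without WT replicate 1, and 7 did when all 12 libraries shared 1 estimate of the spread. In whole liver 4 fell without WT replicate 1 and 6 when the library with Xist (Cdk1 Liv-/- replicate 3) was left out, beside 992 of all genes that fell and 5479 that rose in that fit.

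The deposited FPKM were not normalised between libraries, and in whole liver the median gene was 0.18 higher in Cdk1 Liv-/- on the log2 scale. Division by median-ratio size factors moved that median by -0.17, to 0.014, and the hepatocyte median from 0.049 to -0.0017. Of the genes that changed in whole liver, 83.5% were higher as deposited and 52.5% under median-ratio scaling, and in hepatocytes the shares were 64.7% and 54.5%. The counts of the 10 genes that fell were 7 and 3 under either scaling, but beside 16.3% of all genes in whole liver and 8.18% in hepatocytes under median-ratio scaling, while their median log2 fold changes moved with the rest, to -0.60 in whole liver and -0.53 in hepatocytes.

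**Figure D1:**
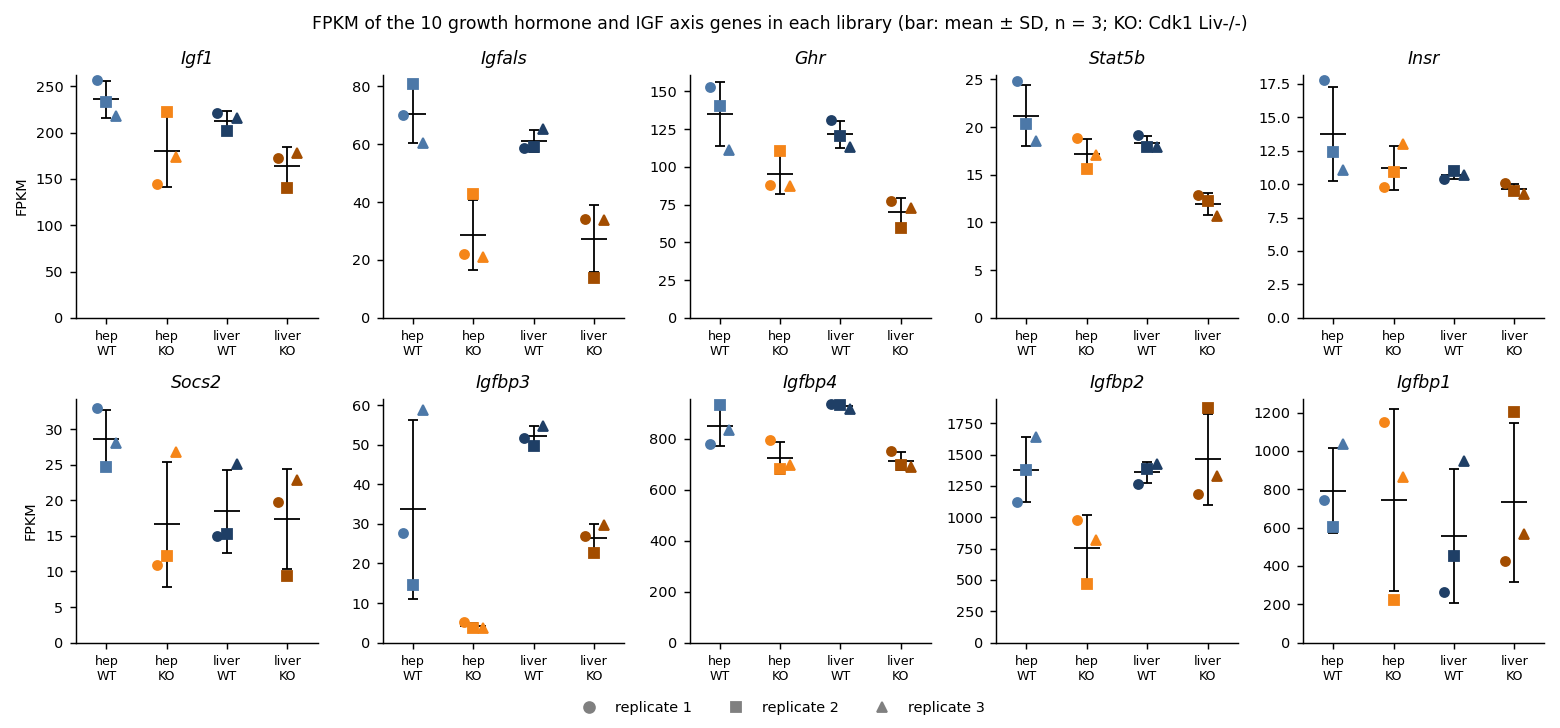
FPKM of each of the 10 genes in each of the 12 libraries, with mean and SD of each group of 3 as bars; hep, isolated hepatocytes; liver, whole liver; KO, Cdk1 Liv-/-. Within a compartment no Cdk1 Liv-/- library reaches a WT library for Ghr, Igfals and Igfbp3 in both compartments.

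**Figure D2:**
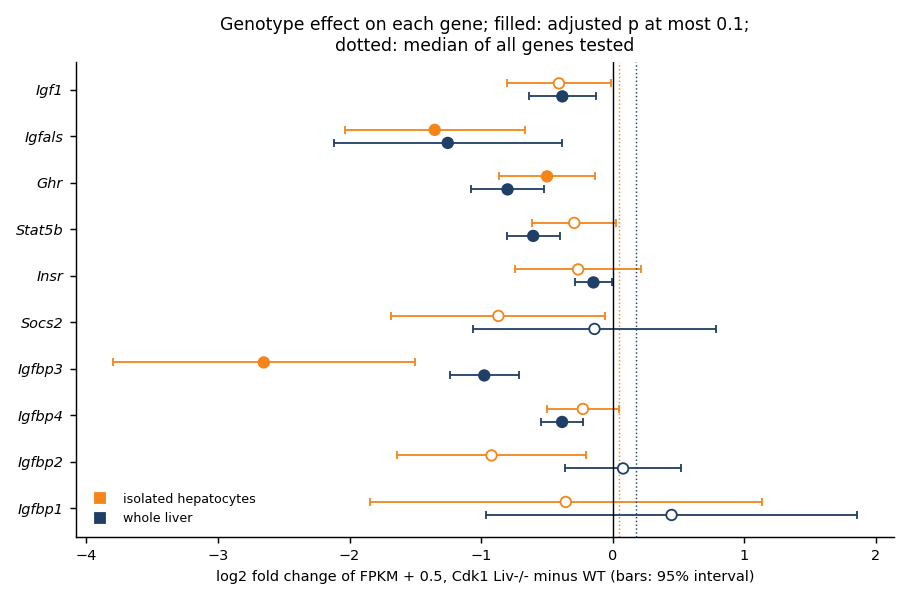
Log2 fold change of FPKM + 0.5 between Cdk1 Liv-/- and WT for each of the 10 genes, with the 95% interval; filled circles had an adjusted p of 0.1 or less and dotted lines give the median of all genes tested, 0.049 in hepatocytes and 0.18 in whole liver. Points to the left are lower in Cdk1 Liv-/-, and only Igfbp1 and Igfbp2 in whole liver lie to the right of 0, of which Igfbp2 moves to the left under median-ratio scaling.

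Ghr encodes the growth hormone receptor (ENSMUSG00000055737; chr15:3317760-3583492, minus strand, build mm10). In hepatocytes its level was 153, 140.4 and 111 FPKM in the WT libraries and 87.8, 110.4 and 87.3 FPKM in the Cdk1 Liv-/- libraries. The groups did not overlap, but WT replicate 3 and Cdk1 Liv-/- replicate 2 were nearly level. In whole liver Ghr was 131, 120.2 and 113 FPKM in WT and 77.3, 59.7 and 73.0 FPKM in Cdk1 Liv-/-. There the lowest WT library stood well above the highest Cdk1 Liv-/- library. Ghr fell by 0.80 on the log2 scale in whole liver (SE 0.11, n = 3 per group, adjusted p = 0.00596), and this call held in all 6 fits without 1 library. In hepatocytes it fell by 0.50 (SE 0.15, adjusted p = 0.0918), a call that ended in 8 of 15 alternatives, 4 of them without a single library (WT replicate 1 or 2, Cdk1 Liv-/- replicate 1 or 3), with adjusted p up to 0.224. The difference between the compartments, 0.30 on the log2 scale, did not pass (adjusted p = 0.395).

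Stat5b encodes the transcription factor through which the receptor acts on Igf1 (ENSMUSG00000020919; chr11:100780731-100850724, minus strand). Its level in whole liver was 19.2, 17.9 and 17.9 FPKM in WT and 12.9, 12.2 and 10.6 FPKM in Cdk1 Liv-/-. Both groups were tight and far apart. Stat5b fell by 0.60 on the log2 scale in whole liver (SE 0.082, adjusted p = 0.00545). In hepatocytes the levels were 24.8, 20.3 and 18.6 FPKM in WT and 18.8, 15.6 and 17.1 FPKM in Cdk1 Liv-/-, and the groups overlapped, since Cdk1 Liv-/- replicate 1 stood above WT replicate 3. The log2 fold change of -0.29 did not pass there (adjusted p = 0.208), nor did the difference between compartments (0.31, adjusted p = 0.276).

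Socs2, a feedback inhibitor that growth hormone induces (ENSMUSG00000020027; chr10:95385362-95417180, minus strand), varied widely between libraries of the same group. In hepatocytes it was 33.0, 24.7 and 28.1 FPKM in WT and 10.96, 12.2 and 26.8 FPKM in Cdk1 Liv-/-. Cdk1 Liv-/- replicate 3 lay among the WT libraries and the other two lay far below them. The log2 fold change of -0.87 (SE 0.34) did not pass (adjusted p = 0.154), and without replicate 3 it did (adjusted p = 0.0165). In whole liver Socs2 was 14.9, 15.3 and 25.2 FPKM in WT and 19.8, 9.41 and 22.9 FPKM in Cdk1 Liv-/-. These groups overlapped throughout, and the log2 fold change of -0.14 (adjusted p = 0.7997) turned to 0.24 without Cdk1 Liv-/- replicate 2. The 95% interval in whole liver, from -1.06 to 0.78, allows a sizeable change either way.

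Igf1 encodes the circulating growth factor itself (ENSMUSG00000020053; chr10:87858265-87937042, plus strand). In whole liver it was 222, 201 and 216 FPKM in WT and 173, 141 and 178 FPKM in Cdk1 Liv-/-. The groups did not overlap, and Cdk1 Liv-/- replicate 2 was the lowest. Igf1 fell by 0.38 on the log2 scale (SE 0.10, adjusted p = 0.0364), to 0.770 of the WT mean, and the call ended without WT replicate 1 (adjusted p = 0.116). In hepatocytes it was 257, 233 and 218 FPKM in WT and 145, 222 and 173 FPKM in Cdk1 Liv-/-. Here Cdk1 Liv-/- replicate 2 was the highest of its group and stood above WT replicate 3, so the groups overlapped. The log2 fold change of -0.41 was of similar size but its SE was 0.16, and it did not pass (adjusted p = 0.166). It passed without that library (adjusted p = 0.0570) and when all 12 libraries shared 1 estimate of the spread (adjusted p = 0.0644). The ratio of means was 0.763 in hepatocytes. The difference between the compartments was -0.03 on the log2 scale (95% interval -0.48 to 0.42, adjusted p = 0.960) and turned positive under median-ratio scaling (0.12).

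Igfals encodes the acid labile subunit, which hepatocytes make under growth hormone and which holds IGF1 and IGFBP3 in the plasma complex (ENSMUSG00000046070; chr17:24865997-24882010, plus strand). Of the 10 genes, 8 had at least 1 promoter window in RefSeq (build GRCm38.p6, the sequence of mm10), 13 windows in all, each from 250 bases before to 50 bases after an annotated start. Those windows were searched on both strands for TTCNNNGAA, the palindrome that STAT5 proteins recognise, which 8.29% of all 32817 windows hold. Igfals was the 1 gene of the 8 with a match, in 2 of its 3 windows. Both are shown because Igfals is a textbook target of STAT5B that fell in both compartments. The first is chr17:24877594-24877893 and the second chr17:24877981-24878280, both plus strand, 5′ to 3′, with the match in capitals at bases 15 to 23 and 193 to 201. A match is a description of letters and shows no binding.
Igfals window 1: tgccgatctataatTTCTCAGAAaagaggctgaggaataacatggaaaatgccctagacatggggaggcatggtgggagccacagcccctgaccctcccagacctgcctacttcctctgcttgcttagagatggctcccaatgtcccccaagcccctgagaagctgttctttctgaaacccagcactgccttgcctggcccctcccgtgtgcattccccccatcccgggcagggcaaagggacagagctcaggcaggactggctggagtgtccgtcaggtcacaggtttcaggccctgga
Igfals window 2: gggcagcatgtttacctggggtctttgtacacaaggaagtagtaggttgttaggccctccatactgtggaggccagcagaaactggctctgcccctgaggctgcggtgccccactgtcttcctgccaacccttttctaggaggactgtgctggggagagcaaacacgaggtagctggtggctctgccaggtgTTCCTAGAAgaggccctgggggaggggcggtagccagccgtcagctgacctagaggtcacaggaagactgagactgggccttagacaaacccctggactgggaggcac

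Igfals was 70.2, 80.8 and 60.4 FPKM in WT hepatocytes and 22.2, 42.7 and 20.9 FPKM in Cdk1 Liv-/- hepatocytes. In whole liver it was 58.8, 59.0 and 65.4 FPKM in WT and 34.2, 13.9 and 33.9 FPKM in Cdk1 Liv-/-. The groups were apart in both compartments, and again replicate 2 was the odd library of each Cdk1 Liv-/- group, high in hepatocytes and low in whole liver. Igfals fell by 1.35 on the log2 scale in hepatocytes (SE 0.28, adjusted p = 0.0343) and by 1.25 in whole liver (SE 0.35, adjusted p = 0.0405). Means of Cdk1 Liv-/- libraries were 0.406 and 0.448 of the WT means. The call in hepatocytes ended without WT replicate 1 (adjusted p = 0.109), and that in whole liver without WT replicate 1 (adjusted p = 0.106) or WT replicate 3 (adjusted p = 0.109). The effects in the compartments differed by -0.10 (adjusted p = 0.930), or 0.04 under median-ratio scaling.

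Igfbp3 encodes the main IGF carrier of plasma and the third partner of that complex (ENSMUSG00000020427; chr11:7206086-7213923, minus strand). In rodent liver its mRNA is known mostly from cells other than hepatocytes, the lining cells of the sinusoids among them. In hepatocyte preparations its level was 27.6, 14.6 and 58.8 FPKM in WT and 5.08, 3.75 and 3.78 FPKM in Cdk1 Liv-/-. The WT libraries differed from each other several fold, with replicate 3 the highest, while the Cdk1 Liv-/- libraries were uniformly low. In whole liver it was 51.8, 49.8 and 54.8 FPKM in WT and 27.1, 22.5 and 29.7 FPKM in Cdk1 Liv-/-, and both groups were tight and separate. Igfbp3 fell by 2.65 on the log2 scale in hepatocytes (SE 0.47, adjusted p = 0.0214), the largest change among the 10 genes, and by 0.98 in whole liver (SE 0.11, adjusted p = 0.00312). Both calls held without each library in turn. The means of Cdk1 Liv-/- libraries were 0.125 and 0.507 of the WT means.

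The test of a difference between compartments passed for 1 gene of the 10, Igfbp3, beside 9.85% of all genes, and most alternatives ended that call. The effect in hepatocytes was lower than in whole liver by -1.68 on the log2 scale (SE 0.52, adjusted p = 0.0948). The call ended in 14 of 19 alternatives, among them 10 of 12 fits without 1 library and median-ratio scaling (-1.54, adjusted p = 0.125), with adjusted p up to 0.193. Of the 10 genes, 2 had an unadjusted p under 0.05 in that test, as did 4106 of all genes tested. Of the genes that passed it, 23.9% had the higher effect in hepatocytes, and 52.3% did under median-ratio scaling.

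Markers of sinusoidal endothelial cells moved with Igfbp3 in the hepatocyte preparations. All 8 of the 8 markers fell there (Stab2, Lyve1, Clec4g, Kdr, Pecam1, Fcgr2b, Oit3 and Gpr182), beside 6.61% of all genes, with a median log2 fold change of -1.73. That count was 3 of 8 when WT replicate 1 or Cdk1 Liv-/- replicate 2 or 3 was left out, each alone, and 5 of 8 when Cdk1 Liv-/- replicate 1 was. Their summed level was 136, 93.6 and 252 FPKM in WT hepatocytes and 64.3, 41.0 and 46.8 FPKM in Cdk1 Liv-/- hepatocytes. WT replicate 3 had the highest sum as it had the highest Igfbp3. In whole liver the sums were 116, 137 and 167 FPKM in WT and 149, 182 and 152 FPKM in Cdk1 Liv-/-. Those sums overlapped while Igfbp3 was lower in all 3 Cdk1 Liv-/- libraries, and 2 of the 8 markers rose with limma, beside 38.0% of all genes, or 0 without Cdk1 Liv-/- replicate 3, without WT replicate 1 or under median-ratio scaling. The most abundant marker was Fcgr2b, an Fc receptor, at 34.7 ± 17.4 FPKM (SD, n = 3) in WT hepatocytes and 13.4 ± 2.60 in Cdk1 Liv-/- hepatocytes, and no marker was at 0 in any library. For 7 of the 8 the effect differed between compartments by the same test as Igfbp3, beside 9.85% of all genes. Calls of that test depended on single libraries. Over all genes they went from 409 higher and 1303 lower to 35 and 43 without WT whole liver replicate 1. In bulk RNA, fewer cells of a type and less RNA per cell cannot be told apart, and the part of these cells in the change of Igfbp3 was not tested.

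**Figure D3:**
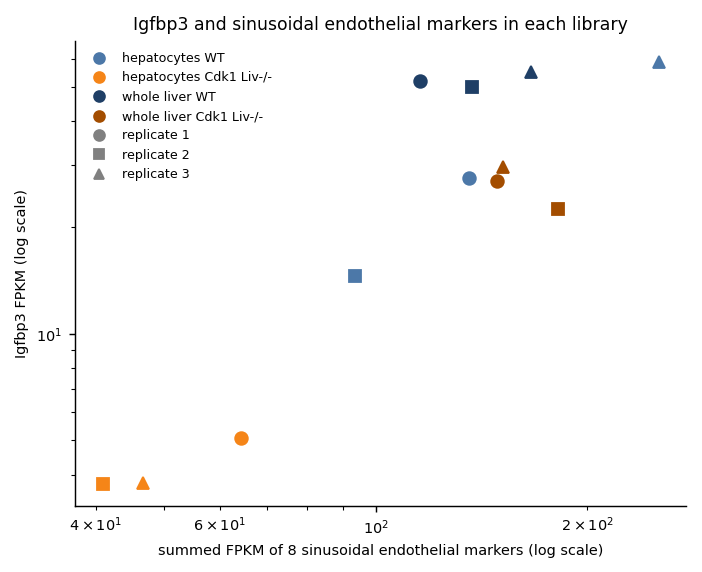
FPKM of Igfbp3 against the summed FPKM of 8 sinusoidal endothelial markers, 1 point per library, both axes on a log scale. Cdk1 Liv-/- hepatocytes lie low on both axes, and Cdk1 Liv-/- whole livers lie below WT whole livers in Igfbp3 at marker sums of 149 to 182 FPKM.

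Igfbp4 encodes a carrier that restrains IGF1 until it is cleaved (ENSMUSG00000017493; chr11:99041244-99054392, plus strand). It was among the most abundant of the 10, at 937, 933 and 915 FPKM in WT whole liver and 751, 695 and 689 FPKM in Cdk1 Liv-/- whole liver. No library of one group came near the other. Igfbp4 fell by 0.38 on the log2 scale (SE 0.064, adjusted p = 0.00918), a call that held without each library in turn. In hepatocytes it was 779, 930.4 and 835 FPKM in WT and 796, 681 and 697 FPKM in Cdk1 Liv-/-. Those groups overlapped and the log2 fold change of -0.23 did not pass (adjusted p = 0.244). The compartments did not differ in effect by test (0.16, adjusted p = 0.495).

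Igfbp2 encodes a carrier that is high in fetal and young liver (ENSMUSG00000039323; chr1:72824503-72852474, plus strand), and it was the most abundant of the 10 genes by mean in all 4 groups. In hepatocytes it was 1119.8, 1378 and 1643 FPKM in WT and 978, 468 and 816 FPKM in Cdk1 Liv-/-. The groups did not overlap, and Cdk1 Liv-/- replicate 2 was the lowest. The log2 fold change of -0.92 (SE 0.30) missed the threshold (adjusted p = 0.105) and passed it in 4 of 15 alternatives, such as a filter at a mean FPKM of 1 (adjusted p = 0.0740). In whole liver Igfbp2 was 1266, 1383 and 1426 FPKM in WT and 1187, 1871 and 1328 FPKM in Cdk1 Liv-/-. These groups overlapped, with Cdk1 Liv-/- replicate 2 now the highest. The log2 fold change of 0.08 (adjusted p = 0.753) turned negative under median-ratio scaling (-0.14) and without that library (-0.11). The test of the difference between compartments gave -1.0005 on the log2 scale (SE 0.37) and did not pass (adjusted p = 0.135).

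Igfbp1 encodes the carrier that insulin represses within hours (ENSMUSG00000020429; chr11:7197782-7202546, plus strand). It lies 3.5 kb from Igfbp3, and Igfbp2 lies 5.5 kb from Igfbp5. The promoter of Igfbp1 is known for an insulin response sequence bound by FOXO factors, so it is shown here, as chr11:7197537-7197836, plus strand, 5′ to 3′, from RefSeq. Capitals mark CAAAACA at bases 143 to 149 and, on the other strand, CAAAATA at bases 154 to 160, which reads TATTTTG here. Both motifs were searched on both strands. CAAAACA is held by 6.29% of all windows, CAAAATA by 4.35%, and both together by 0.47%, and of the 8 genes with windows only Igfbp1 held either. A match is a description of letters.
Igfbp1 window: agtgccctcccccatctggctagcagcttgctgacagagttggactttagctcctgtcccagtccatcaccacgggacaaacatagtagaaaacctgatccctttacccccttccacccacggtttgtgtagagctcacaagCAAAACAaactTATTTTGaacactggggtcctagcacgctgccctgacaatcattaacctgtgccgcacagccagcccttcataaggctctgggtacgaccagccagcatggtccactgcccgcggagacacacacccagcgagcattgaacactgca

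Igfbp1 had the largest SE of the 10 genes in both compartments. Its level was 742, 601 and 1035 FPKM in WT hepatocytes and 1149, 223 and 862 FPKM in Cdk1 Liv-/- hepatocytes. In whole liver it was 266, 453 and 945 FPKM in WT and 425, 1204 and 565 FPKM in Cdk1 Liv-/-. Libraries of the same group differed up to several fold and the groups overlapped in both compartments. Its log2 fold change was -0.36 in hepatocytes (SE 0.62, adjusted p = 0.745) and 0.45 in whole liver (SE 0.57, adjusted p = 0.573). The 95% intervals ran from -1.85 to 1.14 and from -0.96 to 1.86, and so cover changes of either sign. In hepatocytes the value turned to 0.36 without Cdk1 Liv-/- replicate 2.

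Insr encodes the insulin receptor (ENSMUSG00000005534; chr8:3122061-3279617, minus strand). It was 10.4, 10.97 and 10.7 FPKM in WT whole liver and 10.1, 9.48 and 9.28 FPKM in Cdk1 Liv-/- whole liver. The groups were apart by a narrow gap. Insr fell by 0.15 on the log2 scale (SE 0.057, adjusted p = 0.0978), the smallest change that passed, and the call ended in 9 of 15 alternatives (adjusted p up to 0.518), among them the fit without the library with Xist (adjusted p = 0.223). In hepatocytes it was 17.8, 12.4 and 11.1 FPKM in WT and 9.78, 10.9 and 13.0 FPKM in Cdk1 Liv-/-, the groups overlapped and the log2 fold change of -0.26 did not pass (adjusted p = 0.432). The effects in the compartments differed by -0.12 (adjusted p = 0.794), or by 0.02 under median-ratio scaling.

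Replicate 2 of the Cdk1 Liv-/- groups stood at the edge of its group for several genes at once. In whole liver that library had the lowest Igf1, Ghr, Igfals and Socs2 and the highest Igfbp1 and Igfbp2 of the 3. In hepatocytes the library with the same number had the highest Igf1, Ghr and Igfals and the lowest Igfbp1 and Igfbp2. Deviations from the group means were correlated across genes between hepatocyte and whole liver libraries of a genotype. In WT, equal numbers gave a Pearson r of 0.046, 0.074 and 0.24, and unequal numbers -0.21 to 0.16. In Cdk1 Liv-/-, equal numbers gave -0.035, -0.057 and -0.12, and unequal numbers -0.0088 to 0.082. These values cannot decide whether equal numbers mark pairs, which the labels do not state. Replicate 3 of Cdk1 Liv-/- was no pair from the same animal, with Xist at 158 FPKM in whole liver and 0.01 FPKM in hepatocytes.

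Relative amounts of the binding proteins can be compared within a library, since FPKM is per length. Of the summed FPKM of Igfbp1 to Igfbp7, Igfbp2 made up 44.0% ± 2.74 (SD, n = 3) in WT hepatocytes and 33.3% ± 0.504 in Cdk1 Liv-/- hepatocytes. In whole liver its share was 45.5% ± 3.81 in WT and 46.9% ± 0.701 in Cdk1 Liv-/-. The hepatocyte shares did not overlap, at 41.1%, 46.5% and 44.5% against 32.8%, 33.2% and 33.8%. Igfbp3 made up 1.03% ± 0.549 (WT) and 0.198% ± 0.0595 (Cdk1 Liv-/-) in hepatocytes, and 1.75% ± 0.202 (WT) and 0.893% ± 0.284 (Cdk1 Liv-/-) in whole liver. Igfbp4 held 27.5% ± 4.49, 34.7% ± 11.9, 31.3% ± 4.67 and 23.8% ± 5.93 in the same order, and Igfbp1 25.2% ± 4.25, 30.03% ± 12.4, 17.6% ± 8.78 and 22.3% ± 7.07. The shares of both overlapped between the genotypes in each compartment. Igfbp7, a low-affinity relative, made up 3.74% ± 0.217 (WT) and 5.99% ± 1.12 (Cdk1 Liv-/-) of the sum in whole liver. The whole sum ran from 1409 FPKM in Cdk1 Liv-/- hepatocyte replicate 2 to 3986 FPKM in Cdk1 Liv-/- whole liver replicate 2. These shares are a description without a test.

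**Figure D4:**
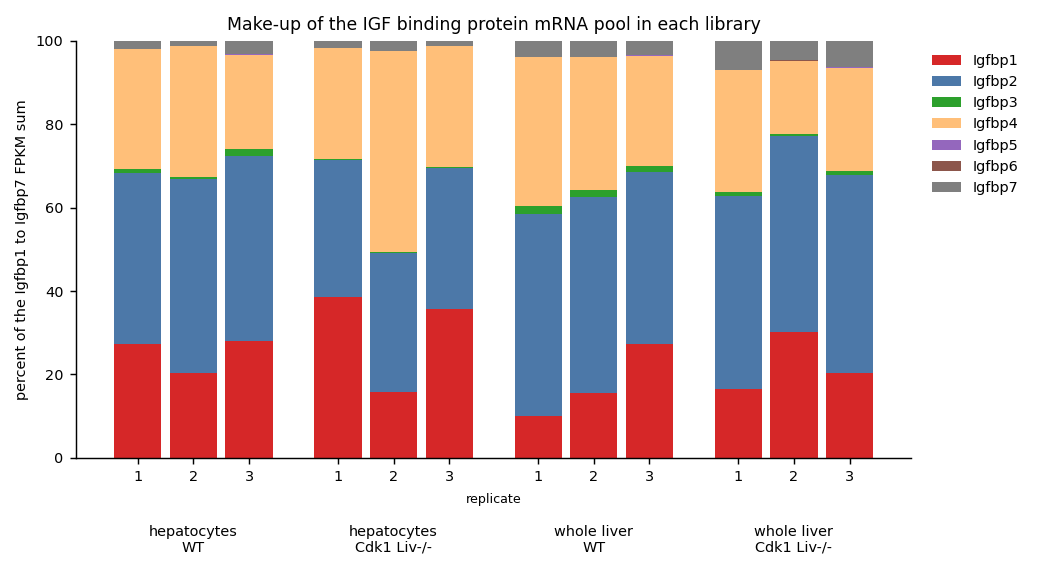
Percent of the summed FPKM of Igfbp1 to Igfbp7 held by each gene, 1 bar per library. Igfbp2 takes 32.8% to 33.8% in Cdk1 Liv-/- hepatocytes and 41.1% to 46.5% in WT hepatocytes.

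Without the knockout, none of the 10 genes passed the test between hepatocytes and whole liver with limma, beside 2.93% of all genes, and 1 gene, Igfbp3, had an unadjusted p under 0.05, as did 3049 of all genes tested. Its log2 difference of -0.84 (adjusted p = 0.269) passed without WT hepatocyte replicate 3 (-1.35, adjusted p = 0.0104), as did the 0.46 of Insr (adjusted p = 0.0931). Among WT hepatocyte means the order ran from Igfbp2 at 1380.2 ± 261 FPKM (SD, n = 3) through Igfbp4 at 848 ± 76.7, Igfbp1 at 793 ± 221, Igf1 at 236 ± 19.7, Ghr at 135 ± 21.3 and Igfals at 70.5 ± 10.2. It ended with Igfbp3 at 33.7 ± 22.7, Socs2 at 28.6 ± 4.14, Stat5b at 21.2 ± 3.23 and Insr at 13.8 ± 3.55. Igfbp4 and Igfbp1 lay within their spread of each other, as did Igfbp3, Socs2 and Stat5b. By rank among the 17386 genes, Igfbp2 stood at 49 and Insr at 3750 in WT hepatocytes, and Igfbp3 went from 1768 in WT to 8187 in Cdk1 Liv-/- hepatocytes. Of the genes that differed in this comparison, 7.65% were higher in hepatocytes, and 30.4% were under median-ratio scaling.

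Other genes of the pathway were read from 9 lists. Over all genes tested, 12.1% rose and 6.61% fell in hepatocytes, and 38.0% rose and 7.53% fell in whole liver. Under median-ratio scaling these shares were 9.81% and 8.18% in hepatocytes and 17.95% and 16.3% in whole liver. None of the list counts was tested against them. Of the genes named from the lists, the effect of genotype differed between compartments by test for Igfbp3, Socs1, Foxo3 and Hnf4a. For every other gene named from the 9 lists that test did not pass, also where a change passed in 1 compartment only.

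Genes that transmit the growth hormone signal moved in both directions. Of 13 genes of receptor signalling, 2 fell and 2 rose in hepatocytes, beside 6.61% and 12.1% of all genes. In whole liver 4 fell and 5 rose, beside 7.53% and 38.0% of all genes. Those that fell were Ghr, Stat5a, Stat5b and Prlr, and those that rose Jak2, Stat3, Grb10, Src and Lyn. Under median-ratio scaling 7 fell and 1 rose there, beside 16.3% and 17.95%. The median log2 fold changes were -0.13 in hepatocytes and -0.03 in whole liver, or -0.21 and -0.25 under median-ratio scaling. Without WT replicate 1 of whole liver 1 gene rose, and without WT replicate 2, 2 did. Prlr, the prolactin receptor and a relative of Ghr, fell by 0.52 in hepatocytes (adjusted p = 0.0946) and by 0.72 in whole liver (adjusted p = 0.0247). Stat3, the main factor of the interleukin 6 response, rose by 0.59 in hepatocytes (adjusted p = 0.0241), and Src, a kinase, rose by 0.84 in whole liver (adjusted p = 0.000823). Grb10, an adaptor that damps growth factor receptors, rose by 0.49 in whole liver (adjusted p = 0.0364), while the 0.51 of Src in hepatocytes did not pass (adjusted p = 0.113). The call of Prlr in hepatocytes ended in 9 of 15 alternatives (adjusted p up to 0.226), that of Stat3 in hepatocytes in 1, the replicate block (adjusted p = 0.103), and that of Grb10 in 4 of 15, among them median-ratio scaling and the fit without the library with Xist.

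Of the feedback inhibitors of the pathway, 6 of 10 rose in whole liver (Socs1, Socs3, Ptpn1, Ptpn2, Ptpn6 and Fgf21), beside 38.0% of all genes, or 3 of 10 under median-ratio scaling, beside 17.95%. In hepatocytes 2 did (Socs3 and Cish), beside 12.1% of all genes. The call of Socs1 in whole liver ended in 7 of 14 alternatives (adjusted p up to 0.196), median-ratio scaling among them. The median log2 fold change was 0.57 in whole liver, 0.36 under median-ratio scaling, and 0.01 in hepatocytes, where it turned to -0.06 under that scaling. Socs3, which cytokines such as interleukin 6 induce, rose by 1.81 in whole liver (SE 0.14, adjusted p = 0.00118) and by 1.12 in hepatocytes (SE 0.33, adjusted p = 0.0811). Its level in whole liver was 2.39, 2.13 and 2.47 FPKM in WT and 9.83, 11.1 and 7.59 FPKM in Cdk1 Liv-/-. Every Cdk1 Liv-/- library stood far above every WT library. Fgf21, a hormone of fasting and stress that dampens STAT5 signalling, rose by 1.13 in whole liver (adjusted p = 0.00115), beside -0.04 in hepatocytes (adjusted p = 0.958). Cish, a STAT5 target like Socs2, rose by 1.10 in hepatocytes (adjusted p = 0.0957), a call that ended in 11 of 15 alternatives, and that of Socs3 in hepatocytes ended in 7 of 15. Genes at the low end of the list were Socs2, described with the 10, Socs1 in hepatocytes (-0.47, adjusted p = 0.163) and Sirt1 in whole liver (0.05, adjusted p = 0.604, negative under median-ratio scaling).

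Of the ligands and receptors of the IGF family, none of 5 passed in hepatocytes with limma, where 2 had an unadjusted p under 0.05, as did 4939 of all genes tested. In whole liver Igf1 and Insr fell and Igf2r rose, beside 7.53% and 38.0% of all genes. The median log2 fold changes were -0.26 and 0.24, or -0.34 and 0.17 under median-ratio scaling. Igf2r, the receptor that clears IGF2, rose by 0.64 in whole liver (adjusted p = 0.00542) and had a log2 fold change of 0.81 in hepatocytes that did not pass (adjusted p = 0.161). Igf2, the fetal ligand, was 390, 265 and 352 FPKM in WT whole liver and 317, 327 and 967 FPKM in Cdk1 Liv-/- whole liver. The high value is that of replicate 3, the library with Xist, and without it the log2 fold change of 0.49 (adjusted p = 0.443) turned to -0.04. In hepatocytes the value for Igf2 was -0.36 (adjusted p = 0.499) and that for Igf1r, the receptor of IGF1, 0.03 (adjusted p = 0.914). Ins2 and Insrr were below the filter.

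Of 8 genes of binding proteins and the acid labile subunit, in whole liver Igfbp3, Igfbp4 and Igfals fell and Igfbp6 and Igfbp7 rose, beside 7.53% and 38.0% of all genes, with a median log2 fold change of 0.18 (-0.02 under median-ratio scaling). In hepatocytes 2 fell, beside 6.61% of all genes, and the median was -0.70, or -0.76 under median-ratio scaling. Igfbp7, which endothelial and stellate cells express, rose by 0.69 in whole liver (adjusted p = 0.00333), from 112 ± 10.1 to 181 ± 6.80 FPKM (SD, n = 3), beside -0.74 in hepatocytes (adjusted p = 0.304). Igfbp6, a carrier that prefers IGF2, rose by 1.30 there (adjusted p = 0.0108) from low levels, 0.397 ± 0.261 to 1.64 ± 0.0917 FPKM, and had a value of 0.37 in hepatocytes that did not pass (adjusted p = 0.308). The call of Igfbp7 ended when all 12 libraries shared 1 estimate of the spread (adjusted p = 0.145).

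Of the enzymes that cleave binding proteins and their inhibitors, 5 of 8 were tested. Timp1, an inhibitor of metalloproteinases, rose by 4.09 in hepatocytes (adjusted p = 0.00110) and by 4.62 in whole liver (adjusted p = 0.000416). Its level was 0.03, 0.10 and 0.14 FPKM in WT hepatocytes and 6.83, 9.88 and 12.8 FPKM in Cdk1 Liv-/- hepatocytes. No WT hepatocyte library exceeded 0.14 FPKM, which is below the 0.5 added before the log, so the size of 4.09 depends on that constant. Plg, the precursor of plasmin, fell by 0.37 in whole liver (adjusted p = 0.0144). Stc1 (-0.86), Stc2 (-0.28) and Htra1 (0.36) did not pass in hepatocytes, nor in whole liver (-0.09, 0.29 and -0.12). The medians were -0.20 and -0.09, or -0.28 and -0.22 under median-ratio scaling, and Pappa, Pappa2 and Mmp7 were below the filter.

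Downstream of the insulin and IGF receptors, 1 of 21 genes rose in hepatocytes and 7 did in whole liver, Shc1, Grb2, Akt1, Foxo3, Gsk3b and Mtor among them, and none fell. The shares of all genes that rose were 12.1% and 38.0%. Under median-ratio scaling 3 rose and 3 fell in whole liver, beside 17.95% and 16.3% of all genes. Unadjusted p under 0.05 went with 3 and 7 higher values and with 0 lower ones. Median log2 fold changes were 0.15 and 0.12, or 0.07 and -0.05 under median-ratio scaling. Foxo3, a transcription factor that insulin keeps out of the nucleus, rose by 1.14 in hepatocytes (adjusted p = 0.0137) and by 0.45 in whole liver (adjusted p = 0.00901). Gsk3b and Mtor, kinases of the pathway, rose by 0.47 each in whole liver (adjusted p = 0.0154 and 0.00772). The lowest values were those of Irs2 in whole liver (-0.57, adjusted p = 0.288) and Pik3r1 in hepatocytes (-0.28, adjusted p = 0.609). The next were Tsc1 in whole liver (-0.16, adjusted p = 0.143) and Grb2 in hepatocytes (-0.08, adjusted p = 0.736). Gsk3b in hepatocytes had 0.54 (adjusted p = 0.318). The call of Grb2 in whole liver ended under median-ratio scaling (adjusted p = 0.583) and that of Gsk3b in the fit of all 12 libraries (adjusted p = 0.184).

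Of 7 genes tested that FOXO1 activates and insulin represses, 1 rose in hepatocytes (Trib1, 0.72, adjusted p = 0.0583) and 2 in whole liver (Trib1, 0.29, and Pdk4, 1.19, adjusted p = 0.0897 and 0.0828), beside 12.1% and 38.0% of all genes, and none fell or had a lower value with an unadjusted p under 0.05. The medians were -0.04 in hepatocytes and -0.05 in whole liver, or -0.11 and -0.27 under median-ratio scaling. G6pc, which releases glucose, had -0.30 in hepatocytes (adjusted p = 0.240) and -0.55 in whole liver (adjusted p = 0.211), and Ppargc1a 0.10 in hepatocytes (adjusted p = 0.696). The calls of Trib1 and Pdk4 ended in 6, 9 and 8 of 15 alternatives, that of Pdk4 also without the library with Xist. G6pc1, another symbol of G6pc, is not listed in the table.

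In adult liver the pattern of growth hormone pulses sets which genes are higher in each sex, and lists of such genes were read here in young mice. Of 7 male-biased genes tested, Cyp2d9 and Serpina3k rose and Hsd3b5 fell in hepatocytes, beside 12.1% and 6.61% of all genes. In whole liver Cyp2d9 rose and Hsd3b5 and Ugt2b1 fell, beside 38.0% and 7.53%. Medians were 0.16 and 0.15, or 0.12 and -0.01 under median-ratio scaling. Cyp2d9, a cytochrome P450, was 36.5, 34.1 and 31.4 FPKM in WT hepatocytes and 127, 186 and 157 FPKM in Cdk1 Liv-/- hepatocytes. The groups were far apart, and Cyp2d9 rose by 2.17 in hepatocytes (adjusted p = 0.00136) and by 1.68 in whole liver (adjusted p = 0.00824). Serpina3k rose by 2.43 in hepatocytes (adjusted p = 0.0507), a call that ended in 4 of 15 alternatives. Hsd3b5, under 0.5 FPKM in every library, fell by 0.53 in hepatocytes and 0.56 in whole liver (adjusted p = 0.0242 and 0.0196). Its call in hepatocytes ended with the replicate block (adjusted p = 0.109). Ugt2b1 fell by 0.65 in whole liver (adjusted p = 0.0216), beside -0.22 in hepatocytes (adjusted p = 0.391). Slco1a1 had 0.26 in whole liver (adjusted p = 0.197), and Cyp4a12a was below the filter.

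Of 7 female-biased genes tested, 1 rose and 2 fell in hepatocytes, and 1 rose and 1 fell in whole liver, beside the same shares of all genes. The medians were -0.44 and -0.34, or -0.51 and -0.41 under median-ratio scaling. Cyp3a41a, a cytochrome P450, rose by 3.54 in hepatocytes (adjusted p = 0.000409) and by 2.49 in whole liver (adjusted p = 0.0615), where its level was 23.3, 7.74 and 66.9 FPKM in Cdk1 Liv-/- and the highest was the library with Xist. The whole liver call ended in 6 of 15 alternatives, the fit without that library among them. Cux2, a transcription factor, fell by 1.95 in hepatocytes (adjusted p = 0.0196), beside -0.71 in whole liver (adjusted p = 0.244). A1bg had 0.62 in hepatocytes (adjusted p = 0.272) and Cyp2a4 0.05 in whole liver (adjusted p = 0.940), and Sult3a1 was below the filter.

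**Figure D5:**
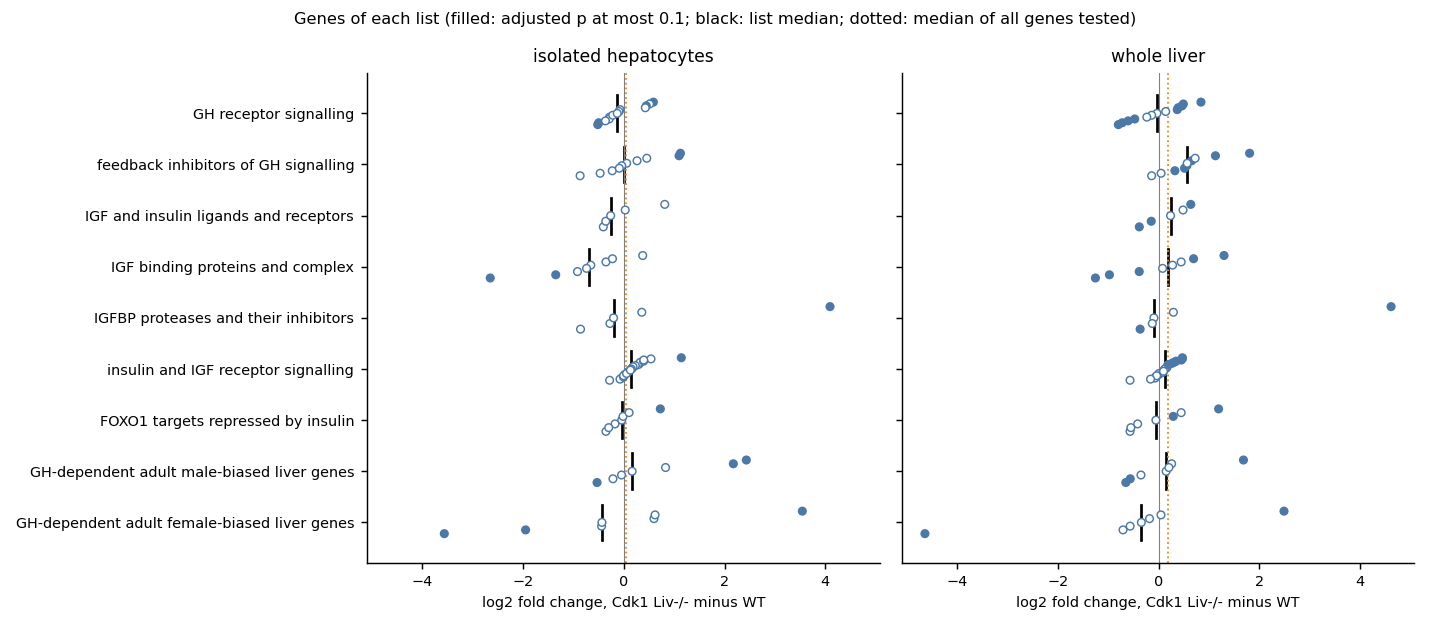
Log2 fold change between Cdk1 Liv-/- and WT for each gene of 9 lists of the pathway, in hepatocytes and in whole liver; filled circles had an adjusted p of 0.1 or less, black bars are list medians and the dotted line is the median of all genes tested. Feedback inhibitors in whole liver lie mostly to the right of 0, with a median of 0.57, or 0.36 under median-ratio scaling.

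Markers of the cell types in the samples moved as well, and these values stand beside the results for the 10 genes. Of 8 hepatocyte markers, 2 rose and 2 fell in hepatocytes, beside 12.1% and 6.61% of all genes, and 4 fell in whole liver, beside 7.53%. The medians were -0.12 and -0.46, or -0.19 and -0.68 under median-ratio scaling. Their summed level was 83927 ± 4295 FPKM (SD, n = 3) in WT hepatocytes and 55512 ± 2268 in Cdk1 Liv-/- hepatocytes, and 82022 ± 1568 and 60918 ± 3191 in whole liver. By library the sums were 79716, 88301 and 83765 FPKM in WT hepatocytes and 55857, 57588 and 53090.4 FPKM in Cdk1 Liv-/- hepatocytes. In whole liver they were 82245, 80355 and 83466 FPKM in WT and 63417, 57324 and 62014 FPKM in Cdk1 Liv-/-. The Cdk1 Liv-/- sums were below all WT sums in both compartments, as Igfals and Ghr were, and none of the markers was at 0 in any library. Alb makes up most of the sum. It was 62176 ± 2145 FPKM (SD, n = 3) in WT and 42219 ± 2514 in Cdk1 Liv-/- hepatocytes, and 59004 ± 2164 and 45610 ± 2064 in whole liver, with all Cdk1 Liv-/- libraries below all WT libraries of the compartment. Its log2 fold changes of -0.56 and -0.37 did not pass with limma (SE 0.38 and 0.22, adjusted p = 0.376 and 0.242), where the spread is moderated toward that of other genes.

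Counts of the lists that follow stand beside shares of all genes of 6.61% that fell and 12.1% that rose in hepatocytes, and of 7.53% and 38.0% in whole liver. Kupffer cell markers, led by Cd5l, fell in 1 of 8 cases in hepatocytes and rose in 4 of 8 in whole liver. Their sums in hepatocytes were 294, 158 and 539 FPKM in WT and 185, 137 and 117 FPKM in Cdk1 Liv-/-. In whole liver they were 418, 472 and 472 FPKM in WT and 554, 745 and 586 FPKM in Cdk1 Liv-/-. Stellate cell and fibroblast markers, led by Col3a1, fell in 1 of 9 cases in hepatocytes and rose in 6 of 9 in whole liver. Their sums in hepatocytes were 190.3, 114 and 376 FPKM in WT and 113, 112 and 96.5 FPKM in Cdk1 Liv-/-. Whole liver sums were 414, 409.97 and 459.7 FPKM in WT and 797, 982 and 754 FPKM in Cdk1 Liv-/-. As for the endothelial markers, WT hepatocyte replicate 3 was the highest of its group in both sums. Without WT hepatocyte replicate 2, 8 Kupffer and 5 stellate markers fell in hepatocytes, and without any other single library of that compartment 0 did. In whole liver 2 Kupffer markers rose without WT replicate 1, without WT replicate 2 or under median-ratio scaling.

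Cholangiocyte markers, led by Spp1, rose in 4 of 5 cases in each compartment. Their sums in hepatocytes were 19.6, 14.6 and 30.1 FPKM in WT and 66.8, 124 and 100.1 FPKM in Cdk1 Liv-/-, and in whole liver 59.4, 62.2 and 45.8 FPKM and 270.2, 139 and 259 FPKM. Erythroid markers, led by Hbb-bs, fell in 2 of 6 cases in each compartment. Sums of theirs were 98.2, 72.0 and 340.3 FPKM in WT and 44.3, 71.2 and 18.8 FPKM in Cdk1 Liv-/- hepatocytes, and 676, 744 and 1293 FPKM and 710.0, 1104 and 869 FPKM in whole liver. Neutrophil markers, led by S100a9, rose in 3 of 5 cases in whole liver and in none in hepatocytes, where no marker had an unadjusted p under 0.05. They summed to 11.03, 8.80 and 37.6 FPKM in WT and 16.0, 7.38 and 15.3 FPKM in Cdk1 Liv-/- hepatocytes, and to 55.3, 35.1 and 53.4 FPKM and 69.4, 253 and 194 FPKM in whole liver, and Ly6g was at 0 in some libraries. The neutrophil count in whole liver ran from 0 (without WT replicate 2) to 5 (without Cdk1 Liv-/- replicate 1), and the cholangiocyte count there from 2 to 5 over the fits without 1 library.

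The median log2 fold change of the endothelial, Kupffer and stellate lists was -1.73, -1.15 and -0.86 in hepatocytes, or -1.80, -1.23 and -0.94 under median-ratio scaling. In whole liver it was 0.06, 0.28 and 0.69, or -0.15, 0.06 and 0.50 under median-ratio scaling. The part of these cells in the changes of the 10 genes was not tested.

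The genes whose levels followed Igf1 most closely over the 12 libraries, among 12281 genes whose mean FPKM reached 1, were Prlr (Pearson r = 0.95), Gabbr2 (0.93), Tpcn1 (0.93), Itih1 (0.93) and Tmem30a (0.92). Among those closest to Igfbp1 were Gadd45b (0.92), Flcn (0.89), Rasgef1b (0.88) and Lepr (0.82). The 12 libraries share compartments and genotypes, so these values describe likeness and carry no test. The genes were picked on libraries of both genotypes, so their genotype effects are not read from this choice. Prlr is also in the list of receptor signalling, and its effects are given there.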

How the data were processed

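Libraries of polyadenylated RNA, 12 in all and 3 for each of 4 groups, gave single-end reads (75 bp). The authors aligned the reads with STAR to mm10, quantified genes with RSEM 1.2.31 and deposited FPKM to 2 decimals, without normalization between libraries. The sources used here give neither the STAR version nor the release of the annotation. FPKM were used as log2(FPKM + 0.5). Genes whose mean over the 12 libraries reached 0.1 FPKM (17386) were tested with limma 3.58.1 in R 4.3.3 (eBayes with trend, two-sided, adjusted p by Benjamini and Hochberg over all of them, threshold 0.1).

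The contrasts were the genotype effect within each compartment (6 libraries each), the difference of these effects, and WT hepatocytes against WT whole liver (12 libraries each, with 1 estimate of the spread). Shares among Igfbp1 to Igfbp7 were described only. The members and the lists (9 of the pathway, 7 of cell types) were chosen with earlier results of these data known. The named genes are all 10 members, Cdk1, Xist and 4 Y-linked genes, the 2 largest and 2 smallest log2 fold changes of each pathway list in each compartment, the 5 genes most like Igf1 and Igfbp1, and the most abundant gene of each cell type list. Not every gene that this rule takes is reported. Other genes are named where a count of a list is spelled out, chosen after their values were seen.

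Alternatives were pseudocounts of 0.1 and 1, no filter and a mean FPKM of 1, median-ratio size factors, equal sums, the replicate number as a block, a two-sample test with q-values, 1 fit of all 12 libraries or of the 6 WT libraries, a log2 fold change of 1 also required, Igfbp7 left out of the sum, and each library left out. Without a library, the lone groups are assumed to vary like the others. Depth was estimated from genes with 1 transcript of 300 to 900 bp at no more than 0.5 FPKM, of which 68.7% to 73.4% lay within 0.15 reads of a whole number, beside 30.0% by chance. The fit and the depth estimate were tested on simulated data. Gene positions are from GENCODE (mm10), promoter windows from RefSeq. Read counts were not used here.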

Additional observations from a re-analysis of the deposited data

Results flagged for a closer look

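For some genes of the axis and its lists, the effect of the genotype differed between isolated hepatocytes and whole liver by the test of that difference. Values are the log2 fold change in hepatocytes minus that in whole liver.

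For Igfbp3 the difference was -1.68 (adjusted p = 0.0948), with -2.65 in hepatocytes and -0.98 in whole liver. The call ended in 14 of 19 alternatives, with adjusted p from 0.0120 to 0.193, and the markers of sinusoidal endothelial cells that moved with it are given with its result. For Socs1, a cytokine-induced inhibitor of JAK kinases, it was -1.13 (adjusted p = 0.0787), with -0.47 in hepatocytes and 0.66 in whole liver, the latter alone past the threshold (adjusted p = 0.0725). Socs1 was at 0.137 ± 0.0115 FPKM (SD, n = 3) in Cdk1 Liv-/- hepatocytes and 1.47 ± 0.541 in Cdk1 Liv-/- whole liver, levels that rest on few reads, and the call ended in 13 of 18 alternatives (adjusted p from 0.0229 to 0.183). For Foxo3 the difference was 0.69 (adjusted p = 0.0797), and the call ended in 10 of 19 alternatives (adjusted p from 0.0566 to 0.168). For Hnf4a, a transcription factor that keeps hepatocytes differentiated, it was 0.58 (adjusted p = 0.0681), with 0.45 in hepatocytes (adjusted p = 0.0875) and -0.14 in whole liver (adjusted p = 0.108). The call in hepatocytes ended in 8 of 15 alternatives, 5 of them without a single library and 1 of them median-ratio scaling (0.37, adjusted p = 0.155), with adjusted p from 0.0132 to 0.193. In whole liver Hnf4a fell by 0.36 under that scaling (adjusted p = 0.0148, range over alternatives to 0.377). The call for the difference ended in 6 of 19 alternatives (adjusted p from 0.0247 to 0.159). None of these genes passed without WT whole liver replicate 1, 2 or 3, each left out alone, or without Cdk1 Liv-/- whole liver replicate 2. Without Cdk1 Liv-/- whole liver replicate 3, the library with Xist, Socs1 passed (adjusted p = 0.0932), and Igfbp3 (0.157), Foxo3 (0.113) and Hnf4a (0.114) did not. Their causes were not tested.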

How the results depend on the processing

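With 3 libraries in a group, many calls near the threshold moved. Among the 10 genes, Igfbp3 in hepatocytes and Ghr, Stat5b, Igfbp3 and Igfbp4 in whole liver kept direction and call under every alternative except, in whole liver, a required log2 fold change of 1. Depth limits genes of low FPKM most, since an FPKM of 1 on 1 kb stood for 34.7 to 49.9 reads. Among 42 other named genes, 149 values were recomputed: 1923 of the alternative values kept direction and call, 143 lost the call, 26 gained it and 32 changed sign. Where no reason is given, the cause was not tested. Counts of the lists moved as well, and those that changed most are given with their results.

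Without a filter, 714 genes fell in hepatocytes, and the effects differed between compartments for 237 genes in the higher and 678 in the lower direction, with 0 of the 10 among the latter. That count was also 0 with a pseudocount of 1. With a mean FPKM of 1, 21 genes were higher and 183 lower in WT hepatocytes than in WT whole liver.

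Under median-ratio scaling, 3121 genes rose and 2826 fell in whole liver, the difference between compartments was lower for 490 genes and 0 of the 10, and 112 genes were higher and 257 lower in WT hepatocytes. In hepatocytes Tsc1 turned to -0.0143. In whole liver Igfbp2 turned to -0.14, Sirt1 to -0.14, Pik3r1 to -0.0406, Serpina3k to -0.0140 and Cyp2a4 to -0.15, none of them past the threshold. The difference between compartments turned to 0.12 for Igf1, 0.0387 for Igfals and 0.0175 for Insr. Equal sums gave 283 genes lower in WT hepatocytes, and 0.0009 for Pdk4 in hepatocytes.

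With the replicate block, 1048 genes rose and 408 fell in hepatocytes, the difference between compartments was higher for 201 genes and lower for 455 and for 0 of the 10, and 18 genes were higher and 251 lower in WT hepatocytes. With all 12 libraries in 1 fit, 3434 genes rose and 2072 fell in hepatocytes, 7 of the 10 among them. With the 6 WT libraries alone, 18 genes were higher and 247 lower in hepatocytes. The two-sample test gave 2014 genes that fell in whole liver. Igfbp2 held 33.9% of the sum in Cdk1 Liv-/- hepatocytes and 49.9% in Cdk1 Liv-/- whole liver without Igfbp7, by construction.

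A required log2 fold change of 1, which can only lower counts, left 730 genes that rose and 377 that fell in hepatocytes, and 798 and 174 in whole liver, 1 of the 10 among the latter. It left 140 higher and 548 lower for the difference between compartments, and 16 and 144 between the WT groups.

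Leaving out 1 library, the genes that rose in hepatocytes numbered 1157 (without WT replicate 1) to 1622, those that fell 402 (without WT replicate 1) to 1224, and 1 to 4 of the 10 fell. In whole liver 859 (without WT replicate 1) to 1296 genes fell, and 4 to 7 of the 10. The difference between compartments was higher for 35 (without WT whole liver replicate 1) to 487 genes and lower for 43 (without the same library) to 2232 (without WT hepatocyte replicate 2), with 0 to 1 of the 10. In WT hepatocytes 4 (without WT whole liver replicate 2) to 283 genes were higher and 90 (without WT hepatocyte replicate 1) to 2174 lower, the larger counts without WT hepatocyte replicate 3, with 0 to 1 of the 10 in either direction.

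Some log2 fold changes changed sign without 1 library, none of them past the threshold with all libraries, with these ranges. In hepatocytes they were Igfbp1 (-0.82 to 0.36), Sirt1 (-0.18 to 0.0125), Fgf21 (-0.27 to 0.38), Igf1r (-0.0830 to 0.11), Grb2 (-0.18 to 0.0034), Irs2 (-0.25 to 0.33), Tsc1 (-0.0687 to 0.26), Ppargc1a (-0.0022 to 0.18), Pdk4 (-0.24 to 0.11) and Slco1a1 (-0.26 to 0.0887). In whole liver they were Igfbp2 (-0.11 to 0.22), Socs2 (-0.38 to 0.24), Igf2 (-0.0430 to 0.76), Stc1 (-0.30 to 0.19), Htra1 (-0.30 to 0.0247), Serpina3k (-0.14 to 0.73) and Cyp2a4 (-0.43 to 0.35), of which the -0.43 of Cyp2a4, without Cdk1 Liv-/- replicate 2, passed (adjusted p = 0.0528). For the difference between compartments they were Igf1 (-0.19 to 0.12), Igfals (-0.52 to 0.11) and Insr (-0.25 to 0.0771), and between the WT groups Igfbp2 (-0.13 to 0.15).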
